A study of Arabidopsis thaliana with 10 samples.

Results

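The dark-inducible (DIN) genes of Arabidopsis thaliana are a set of genes whose transcripts were first collected because they accumulate in leaves kept in the dark, and which sugar represses. The 7 described here are 7 of the 38303 genes in the deposited tables and were found by their locus identifiers: ASN1 (DIN6, AT3G47340), DIN4 (AT3G13450), DIN10 (AT5G20250), DIN9 (AT1G67070), BGLU30 (DIN2, AT3G60140), SEN1 (DIN1, AT4G35770) and DIN11 (AT3G49620). DIN3 (AT3G06850) is not among them and is given with the pathway of DIN4. The genes were selected on their FPKM values, fragment counts scaled by transcript length and by library size, in the 5 groups and on the deposited changes, so the levels and calls of these 7 genes are a description and not independent evidence.

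The libraries hold messenger RNA of whole 12-day-old seedlings, all in the Columbia-0 (Col-0) background, grown on plates at 23 °C under 16 h of light and 8 h of dark, and number 10, with 2 per group. In the hormone experiment, Col-0 treated for 6 h with brassinolide (BL) at 100 nM, a highly active brassinosteroid hormone, stands against Col-0 given mock. The sample titles call this control non-treatment BL, without naming a mock. In the overexpression experiment, a BEH2-YFP line and a BZR1-YFP line, each driven by the constitutive 35S promoter and not treated, stand against untreated Col-0. BEH2 and BZR1 are related transcription factors of brassinosteroid signalling, and the study compares how widely each alters gene expression when overexpressed. How many independent transformants stand behind each line is not stated, and the labels name neither a sugar in the medium nor the hour of harvest. The labels describe no group as darkened or starved of sugar, so the name of the gene set was not checked against its own stimulus here.

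Each group has 1 value per gene, the FPKM that the authors pooled over its 2 libraries, so values per library and depth per library cannot be shown and no overlap between libraries can be judged. A gene "rose" or "fell" where the q-value that the authors deposited is under 0.05. Each fold divides one pooled FPKM by the other. Log2 fold changes carry ± 1 standard error, worked back from the test statistic in the tables, and with 2 libraries per group that error is itself uncertain. The smallest q-value a gene can have is 0.00175 in the hormone table and 0.00149 in the tables of both lines. The smallest Cuffdiff p-value, 5e-05, was held by 1390 genes in BEH2-YFP and 132 in BZR1-YFP. Adjustment within each line alone would give the lines unequal smallest q-values. The deposited q-values of the lines, and the calls made from them, were therefore not adjusted line by line. The BEH2 transcript stood at 2477 FPKM in BEH2-YFP and 25.8 FPKM in Col-0, and the BZR1 transcript at 1265 FPKM in BZR1-YFP and 13.8 FPKM in Col-0, as the labels of the lines have it.

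When photosynthesis stops, plant cells run short of sugar and the kinase SnRK1 becomes active. SnRK1, partly through bZIP transcription factors of groups C and S1, switches on genes that break down amino acids, cell constituents and stored carbohydrate, and ASN1 and several DIN genes are used as reporters of this state. Trehalose 6-phosphate, a signal of sugar supply, restrains the kinase. In whole seedlings, fewer cells with a transcript and less transcript per cell cannot be told apart.

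The starts of ASN1 and DIN11 are shown because ASN1 rose and DIN11 fell both with brassinolide and in BEH2-YFP, and both hold the same CACGTG motif. Each line gives the 250 bases before the annotated gene start, 5′ to 3′ on the strand of the gene, read from the assembly TAIR10.1 at chr3:17441432-17441681 (minus strand) for ASN1 and chr3:18393497-18393746 (plus strand) for DIN11. Capitals mark matches to the searched motifs.
ASN1: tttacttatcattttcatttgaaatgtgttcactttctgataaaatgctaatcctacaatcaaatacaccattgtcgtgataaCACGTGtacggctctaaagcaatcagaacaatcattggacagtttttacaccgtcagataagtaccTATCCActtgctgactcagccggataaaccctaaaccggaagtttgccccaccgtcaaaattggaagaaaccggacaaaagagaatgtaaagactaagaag
DIN11: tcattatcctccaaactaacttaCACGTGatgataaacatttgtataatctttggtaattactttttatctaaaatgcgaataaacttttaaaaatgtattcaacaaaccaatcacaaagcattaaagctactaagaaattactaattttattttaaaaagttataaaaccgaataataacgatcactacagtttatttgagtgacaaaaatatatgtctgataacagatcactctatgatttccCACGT
The motifs were CACGTG (the G-box, bound by bZIP and bHLH factors and also by BZR factors), CGTGTG and CGTGCG (forms of the brassinosteroid response element), TATCCA (known from sugar-starved cereal cells) and ACGTG, searched on both strands. A CACGTG match holds an ACGTG match on each strand. CACGTG stands 167 to 162 bases before the ASN1 start and 227 to 222 bases before the DIN11 start, and the last base of TATCCA is 96 bases before the ASN1 start. DIN11 has 1 more ACGTG at 5 to 1 bases before its start, DIN4 has 1 at 56 to 52 and DIN10 has 1 at 43 to 39. Neither CGTGTG nor CGTGCG was found in the 7 windows, and BGLU30, SEN1 and DIN9 had no match to any of the 5 motifs. CACGTG occurs in 6.49% of 27437 protein-coding windows of this length, TATCCA in 13.6%, ACGTG in 22.9%, CGTGTG in 5.37% and CGTGCG in 1.57%. A match is a stretch of letters and not a shown binding site, and the genes with CACGTG moved in opposite directions.

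ASN1 encodes a glutamine-dependent asparagine synthetase, which stores nitrogen in an amino acid that costs little carbon (chromosome 3, 17437840 to 17441431, minus strand, 4 annotated transcripts). It stood at 156 FPKM with brassinolide and 51.8 FPKM with mock, and at 164 FPKM in BEH2-YFP, 45.8 FPKM in BZR1-YFP and 35.7 FPKM in Col-0. The treated group and the BEH2-YFP group were the high ones, with the other 3 groups within a narrow band below them. ASN1 rose 3.02-fold with brassinolide (log2 1.59 ± 0.15) and 4.59-fold in BEH2-YFP (log2 2.20 ± 0.18). Its log2 fold change in BZR1-YFP was 0.36 ± 0.18, short of a call (q = 0.288 in the authors' deposited table). By size the rise with brassinolide ranked 73 of 688 rises and the rise in BEH2-YFP 201 of 1662. The exons of ASN1 share 11 bases with AT3G47341 on the other strand, which is listed at 0 in all 5 groups.

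DIN4 encodes the E1 beta subunit of the mitochondrial branched-chain keto acid dehydrogenase, which commits leucine, isoleucine and valine to breakdown (chromosome 3, 4382198 to 4384436, minus strand). It stood at 101.4 FPKM with brassinolide and 73.7 FPKM with mock, and at 32.3 FPKM in BEH2-YFP, 25.6 FPKM in BZR1-YFP and 23.8 FPKM in Col-0. Both groups of the hormone experiment lay above all 3 groups of the other one, and DIN4 was called in none of the 3 comparisons. Its log2 fold changes were 0.46 ± 0.17 with brassinolide (q = 0.0893 in the authors' deposited table), 0.44 ± 0.23 in BEH2-YFP and 0.10 ± 0.24 in BZR1-YFP. Exons of DIN4 and of TBP1 on the other strand share 27 bases; TBP1, the TATA-binding protein gene, stood between 19.2 and 25.8 FPKM in the 5 groups. Whether strand was used in counting is not given in the sources used here.

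DIN10 is annotated as a protein of the raffinose synthase family (chromosome 5, 6833564 to 6836862, plus strand). It was among the most abundant transcripts of the hormone experiment, at 1012 FPKM with brassinolide and 749 FPKM with mock, ranks 41 and 75 of 38303 genes. In the overexpression experiment it stood at 179 FPKM in BEH2-YFP, 99.1 FPKM in BZR1-YFP and 69.0 FPKM in Col-0. DIN10 rose 2.60-fold in BEH2-YFP (log2 1.38 ± 0.19). It was not called with brassinolide (log2 0.43 ± 0.18, q = 0.175 in the authors' deposited table) nor in BZR1-YFP (log2 0.52 ± 0.18, q = 0.0594 in the authors' deposited table). Its exons share 82 bases with AT5G20260 on the other strand, which stood at 0.185 FPKM or less in every group.

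DIN9 encodes a phosphomannose isomerase, which interconverts fructose 6-phosphate and mannose 6-phosphate (chromosome 1, 25041833 to 25044659, plus strand). It was low throughout, at 10.7 FPKM with brassinolide and 7.41 FPKM with mock, and at 2.41 FPKM in BEH2-YFP, 3.84 FPKM in BZR1-YFP and 3.10 FPKM in Col-0. DIN9 was called in no comparison; its log2 fold changes were 0.53 ± 0.20 with brassinolide (q = 0.109 in the authors' deposited table), -0.36 ± 0.30 in BEH2-YFP and 0.31 ± 0.28 in BZR1-YFP. It was the member with the largest standard errors in both lines after DIN11 in BEH2-YFP.

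BGLU30 (DIN2) encodes a beta-glucosidase, of a family of enzymes that release glucose from glycosides (chromosome 3, 22216540 to 22220824, plus strand). It stood at 25.0 FPKM with brassinolide and 20.3 FPKM with mock, and at 25.3 FPKM in BEH2-YFP, 9.93 FPKM in BZR1-YFP and 4.72 FPKM in Col-0. Untreated Col-0 was the low group, and the other 4 groups lay above it. BGLU30 rose 5.35-fold in BEH2-YFP (log2 2.42 ± 0.21), the largest rise among the 7 genes without a pseudocount, and to 210.3% of its Col-0 level in BZR1-YFP (log2 1.07 ± 0.21). On the log2(FPKM + 1) scale the rise in BEH2-YFP was 2.20, close to that of ASN1 at 2.17. With brassinolide its log2 fold change was 0.30 ± 0.16, short of a call (q = 0.452 in the authors' deposited table).

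SEN1 (DIN1) encodes a small protein with a rhodanese (sulfurtransferase) domain and is a marker of ageing and darkened leaves (chromosome 4, 16944878 to 16946266, plus strand). It was the most abundant of the 7 in the hormone experiment, at 1469.5 FPKM with brassinolide and 1035 FPKM with mock, ranks 20 and 33 of 38303 genes. It stood at 115 FPKM in BEH2-YFP, 90.9 FPKM in BZR1-YFP and 76.3 FPKM in Col-0, ranks 1003, 1271 and 1525. SEN1 rose 1.42-fold with brassinolide (log2 0.51 ± 0.16) and 1.50-fold in BEH2-YFP (log2 0.59 ± 0.18), and was not called in BZR1-YFP (log2 0.25 ± 0.18). These rises were small beside the typical one, as the median fold of rising genes was 1.79 with brassinolide and 2.11 in BEH2-YFP.

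DIN11 encodes a member of the 2-oxoglutarate and Fe(II)-dependent oxygenase superfamily (chromosome 3, 18393747 to 18397050, plus strand). It stood at 1.35 FPKM with brassinolide and 7.91 FPKM with mock, and at 0.584 FPKM in BEH2-YFP, 5.11 FPKM in BZR1-YFP and 9.98 FPKM in Col-0. The controls of both experiments were the high groups, and DIN11 was the 1 member that fell in all 3 comparisons. It fell 5.85-fold with brassinolide (log2 -2.55 ± 0.28), 17.1-fold in BEH2-YFP (log2 -4.09 ± 0.38) and 1.95-fold in BZR1-YFP (log2 -0.97 ± 0.23). On the log2(FPKM + 1) scale the falls were smaller, at -1.92 with brassinolide and -2.79 in BEH2-YFP. By size, without the pseudocount, they ranked 31 of 560, 23 of 1029 and 55 of 108 falls. The comparisons of both lines share the Col-0 libraries. AT3G49630, the next gene on the same strand and of the same superfamily, stood between 0.0664 and 0.880 FPKM.

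**Figure D1:**
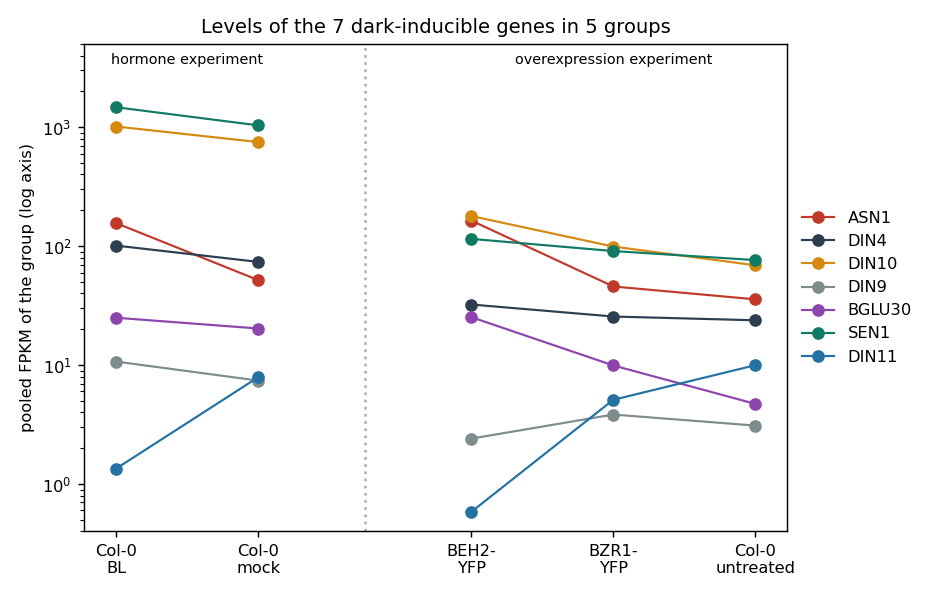
Pooled FPKM of each of the 7 genes (vertical log axis) in the 5 groups (horizontal axis), 1 point per gene and group with no error because the files give 1 pooled value; lines join groups of the same experiment. SEN1 and DIN10 lie at 749 FPKM or more in both hormone groups (1469.5 and 1035 FPKM for SEN1) and at 179 FPKM or less in the other 3 groups, while DIN11 is lowest in BEH2-YFP at 0.584 FPKM.

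All 7 genes were tested in all 3 tables. With brassinolide, 2 rose (ASN1 and SEN1), 1 fell (DIN11) and 4 were not called, where 5.46% of 22864 tested genes were called, 3.01% rising and 2.45% falling. In BEH2-YFP, 4 rose (ASN1, DIN10, BGLU30 and SEN1), 1 fell (DIN11) and 2 were not called, where 11.8% of 22729 tested genes were called, 7.31% rising and 4.53% falling. In BZR1-YFP, 1 rose (BGLU30), 1 fell (DIN11) and 5 were not called, where 1.62% of 22605 tested genes were called, 1.15% rising and 0.478% falling. Since the genes were chosen with these contrasts known, nothing is read from these shares. The median log2 fold change of the 7 was 0.46 with brassinolide, 0.59 in BEH2-YFP and 0.31 in BZR1-YFP, and that of all tested genes was 0.00, -0.01 and 0.00. SEN1 was not called at a q-value under 0.01 in either comparison, and the fall of DIN11 in BZR1-YFP lay just short of 2-fold.

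**Figure D2:**
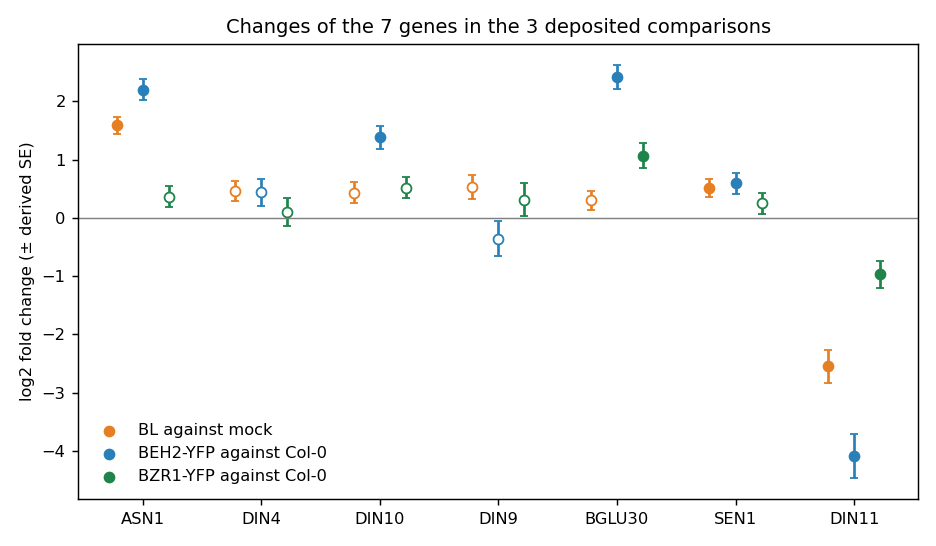
Log2 fold change (vertical axis) of the 7 genes (horizontal axis) in the 3 deposited comparisons, with bars of ± 1 standard error derived from the deposited statistic; filled points have a q-value under 0.05 and open points do not. DIN11 lies below 0 in all 3 comparisons, at -2.55, -4.09 and -0.97, while ASN1 reaches 2.20 and BGLU30 2.42 in BEH2-YFP.

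The lines were compared by subtracting the log2 fold change in BZR1-YFP from that in BEH2-YFP, without a test, since these contrasts chose the genes. The difference was 1.84 ± 0.25 on the log2 scale for ASN1, 1.35 ± 0.30 for BGLU30 and 0.85 ± 0.26 for DIN10, and these genes stood 3.57-fold, 2.55-fold and 1.81-fold higher in BEH2-YFP than in BZR1-YFP. For DIN11 it was -3.13 ± 0.44, an 8.75-fold lower level in BEH2-YFP. For SEN1 (0.34 ± 0.25), DIN4 (0.34 ± 0.33) and DIN9 (-0.67 ± 0.41) the difference was smaller beside its standard error. Both effects are taken against the same Col-0 libraries, whose error cancels in the difference but is counted for each line by these standard errors.

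The controls of the experiments also stood apart for several of the genes. SEN1 stood 13.6-fold higher in Col-0 mock than in untreated Col-0 (1035 and 76.3 FPKM), DIN10 10.9-fold (749 and 69.0 FPKM), BGLU30 4.29-fold (20.3 and 4.72 FPKM), DIN4 3.10-fold (73.7 and 23.8 FPKM) and DIN9 2.39-fold (7.41 and 3.10 FPKM). ASN1 stood 1.45-fold higher in Col-0 mock, and DIN11 1.26-fold lower (7.91 FPKM in Col-0 mock and 9.98 FPKM in untreated Col-0). At least 2-fold higher in Col-0 mock were 5 of the 7 genes, and 0 were at least 2-fold lower; of 16190 genes with at least 5 FPKM in either control, 8.22% were at least 2-fold higher and 5.98% at least 2-fold lower. At least 4-fold higher were 3 of the 7 (SEN1, DIN10 and BGLU30), against 2.33% of all these genes. SEN1 and DIN10 were 2 of the 115 genes (0.710%) at least 10-fold higher. The median log2 ratio was 1.63 over the 7 genes and 0.23 over the 16190 genes. Genes with at least 5 FPKM in both controls had a median of 0.22, and relative to that shift the median of the 7 was 1.41.

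These control values come from separate Cuffdiff runs and have no test, and the experiments differ in mock treatment and in whatever else separated them, which cannot be told apart. For 4 of the 7 genes (DIN4, DIN10, DIN9 and SEN1) both hormone groups stood above all 3 groups of the overexpression experiment. The control chosen therefore sets the direction for some genes. SEN1 in BEH2-YFP was 1.50-fold above untreated Col-0 but 9.02-fold below Col-0 mock, and DIN10 in BEH2-YFP was 2.60-fold above untreated Col-0 and 4.18-fold below Col-0 mock. BGLU30 in BZR1-YFP was at 210.3% of untreated Col-0 and 2.04-fold below Col-0 mock. DIN11 in BEH2-YFP was lower than either control, 17.1-fold and 13.5-fold, and ASN1 in BEH2-YFP was higher than either, 4.59-fold and 3.16-fold.

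**Figure D3:**
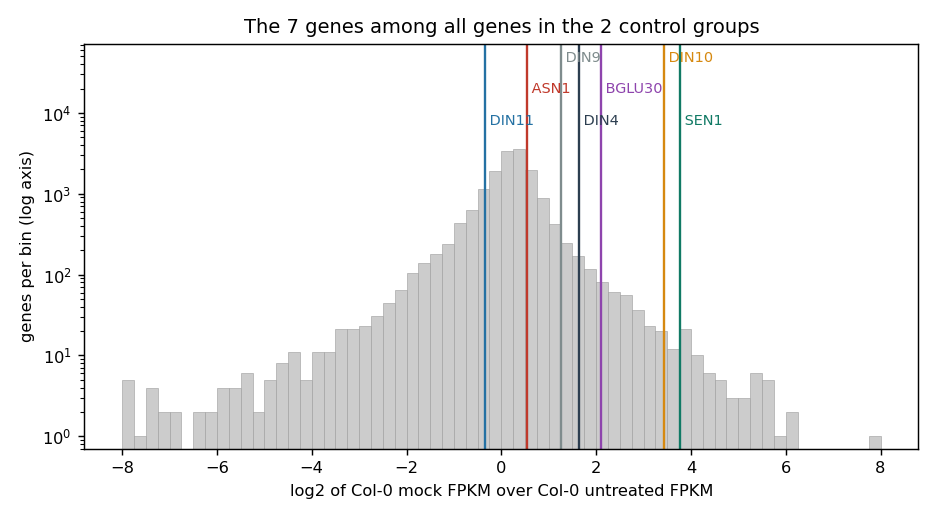
Histogram of the log2 ratio of Col-0 mock to untreated Col-0 FPKM (horizontal axis) over genes with at least 5 FPKM in either control (vertical log axis, genes per bin; the end bins also hold the 4 genes beyond ± 8, and the 42 genes at 0 FPKM in 1 control are left out), with the 7 genes as coloured lines. SEN1 (3.76) and DIN10 (3.44) lie in the right tail, and ASN1 (0.54) and DIN11 (-0.34) near the centre.

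Clock and light-harvesting transcripts, chosen for display after their values were seen, moved with the same contrast. CCA1, a clock gene that peaks around dawn, stood at 0.261 FPKM with brassinolide and 0.249 FPKM with mock, against 41.3 FPKM in BEH2-YFP, 50.6 FPKM in BZR1-YFP and 45.2 FPKM in Col-0. TOC1, which peaks in the evening, stood at 89.4 and 79.3 FPKM in the hormone groups, with brassinolide and with mock, and at 14.0 FPKM in BEH2-YFP, 12.3 FPKM in BZR1-YFP and 13.8 FPKM in Col-0. The 3 morning genes (CCA1, LHY and PRR9) were all lower in Col-0 mock than in untreated Col-0, with sums of 1.04 and 84.5 FPKM, and the 3 evening genes (TOC1, ELF4 and PCL1) were all higher, with sums of 196 and 35.2 FPKM. LHCB1.1, a light-harvesting protein gene, stood at 9.33 FPKM in Col-0 mock and 4503 FPKM in untreated Col-0. Over 8 green shoot markers the sum was 11381 FPKM in Col-0 mock and 32615 FPKM in untreated Col-0, and 6 of the 8 were at least 2-fold lower in Col-0 mock. Over 8 root markers the sum was 1192 FPKM in Col-0 mock and 1861 FPKM in untreated Col-0, most of it PYK10 (1098 and 1781 FPKM), and 4 of the 6 with at least 5 FPKM in either control were higher in Col-0 mock, with a median ratio of 1.06-fold and NRT2.1 at 45.1-fold. The part of these differences in the levels of the DIN genes was not tested. With brassinolide LHY was tested and not called, and CCA1 and PRR9 were not tested, and in the lines the 3 morning genes were tested and not called. The morning genes summed to 1.06 FPKM with brassinolide and 1.04 FPKM with mock, and to 77.2 FPKM in BEH2-YFP, 95.1 FPKM in BZR1-YFP and 84.5 FPKM in Col-0. Among the evening genes ELF4 fell 2.98-fold in BEH2-YFP. Of the 5 floral markers AP1 and PI fell in BEH2-YFP and AP1 in BZR1-YFP, while SEP3, which makes up most of their sum, stood at 16.2 FPKM in BEH2-YFP and 15.2 FPKM in Col-0 and fell 1.59-fold with brassinolide. Their sum was 11.0 FPKM with brassinolide and 14.6 FPKM with mock, and 19.5 FPKM in BEH2-YFP, 24.7 FPKM in BZR1-YFP and 27.0 FPKM in Col-0. Of the root markers TIP2;3 rose 2.82-fold and NRT2.1 fell 1.49-fold with brassinolide, COBL9 fell 2.02-fold in BEH2-YFP and TIP2;3 rose 1.60-fold in BZR1-YFP. The part of these markers in the changes of the DIN genes was not tested. With brassinolide 1 of the 8 green shoot markers rose (CA1), and 0 were called by Cuffdiff in either line. Their median log2 fold change was -0.29 in BEH2-YFP and 0.10 in BZR1-YFP. Standard errors reached 0.70 for RBCS1A in BEH2-YFP and 0.81 for RCA in BZR1-YFP. The medians over all tested genes were 0.228 and 0.227, so an uncalled green marker need not be unchanged.

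**Figure D4:**
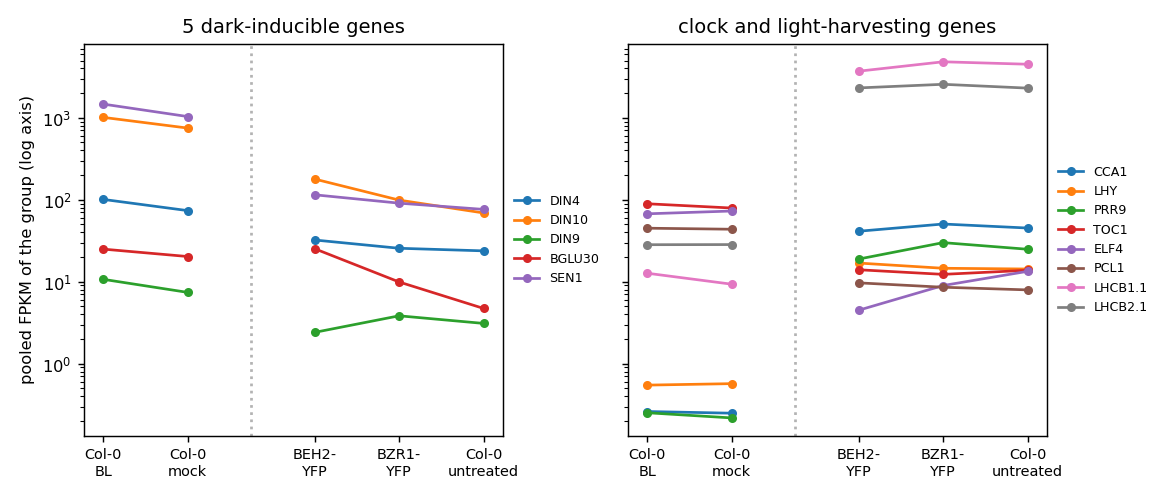
Pooled FPKM (vertical log axis) in the 5 groups (horizontal axis) of the 5 dark-inducible genes at least 2-fold higher in Col-0 mock than in untreated Col-0 (left) and of 6 clock and 2 light-harvesting genes (right), 1 point per gene and group. CCA1, LHY, PRR9, LHCB1.1 and LHCB2.1 are lower in both hormone groups than in the other 3 groups (CCA1 at 0.249 FPKM in Col-0 mock and 45.2 FPKM in untreated Col-0), and TOC1, ELF4 and PCL1 are higher.

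Other genes of the starvation response were not used to choose the 7, but their lists were drawn up with earlier results of these data known. The 9 pathway lists hold 88 different genes, of which 7 rose and 2 fell of 86 tested with brassinolide (10.5% called, against 5.46% of all tested genes), 13 rose and 6 fell of 84 in BEH2-YFP (22.6%, against 11.8%), and 3 rose and 1 fell of 84 in BZR1-YFP (4.76%, against 1.62%). Lists overlap by a few genes (ASN2, RFS2, AKINBETA1 and others), which are counted once here and in each list below.

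Among 14 sugar-repressed and SnRK1-induced marker genes, 4 rose and 0 fell with brassinolide, 4 rose and 1 fell in BEH2-YFP, and 1 rose in BZR1-YFP. Of all tested genes 3.01%, 7.31% and 1.15% rose in these comparisons. An unadjusted Cuffdiff p under 0.05 was held by 7 genes of the list with brassinolide, 8 in BEH2-YFP and 6 in BZR1-YFP, and the share of all tested genes at that threshold was not computed. The list's median log2 fold change was 0.34 with brassinolide, 0.37 in BEH2-YFP and 0.03 in BZR1-YFP. STP1, a sugar importer of the plasma membrane, rose to 518.4 FPKM with brassinolide, against 253 FPKM with mock, and to 96.0 FPKM in BEH2-YFP, against 41.3 FPKM in Col-0. PRODH1, the proline dehydrogenase, rose 1.97-fold with brassinolide (log2 0.98 ± 0.16), 3.44-fold in BEH2-YFP (log2 1.78 ± 0.18) and 1.44-fold in BZR1-YFP (log2 0.53 ± 0.18). SEN5, a widely used dark and starvation marker, rose 1.45-fold with brassinolide and was not called in BEH2-YFP (221 and 270.3 FPKM in Col-0), and AKINBETA1, a regulatory subunit of SnRK1 itself, rose 1.40-fold with brassinolide. GDH2, a glutamate dehydrogenase, rose 3.68-fold and LKR/SDH, the first enzyme of lysine breakdown, 3.57-fold in BEH2-YFP. The fall in BEH2-YFP was that of the expansin gene EXPA10, 2.19-fold, named after its value was seen. Between the controls the list went with the DIN genes. At least 2-fold higher in Col-0 mock than in untreated Col-0 were 11 of its 14 genes, among them BT2 12.4-fold, DRM2 10.3-fold and PRODH1 9.24-fold. Its median ratio was 4.88-fold. Of all 16190 genes with at least 5 FPKM in either control, 8.22% were at least 2-fold higher and 5.98% at least 2-fold lower. GBSS1, the granule-bound starch synthase, was the 1 gene of the list at least 2-fold lower, at 1.40 FPKM in Col-0 mock and 47.4 FPKM in untreated Col-0.

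DIN4 acts in the breakdown of branched-chain amino acids. Of 17 further genes of that pathway 1 rose with brassinolide, MCCA, a subunit of the methylcrotonyl-CoA carboxylase of leucine breakdown (1.65-fold, log2 0.72 ± 0.15). In BEH2-YFP 1 rose, BCAT2, the aminotransferase of the first step (5.96-fold, 42.1 FPKM in BEH2-YFP and 7.06 FPKM in Col-0), and 1 fell, the E1 alpha subunit gene AT5G09300 (1.94-fold). In BZR1-YFP 0 were called by Cuffdiff, and 0 had an unadjusted p under 0.05. DIN3, the E2 subunit of the same complex as DIN4, stood at 56.9 FPKM with brassinolide and 49.3 FPKM with mock, and at 17.6 FPKM in BEH2-YFP, 16.5 FPKM in BZR1-YFP and 15.7 FPKM in Col-0. DIN3 was 3.13-fold and DIN4 3.10-fold higher in Col-0 mock than in untreated Col-0. The E1 alpha gene AT1G21400 was 4.91-fold higher, while the other E1 alpha gene AT5G09300 stood at 9.84 FPKM in Col-0 mock and 11.0 FPKM in untreated Col-0. In all, 7 of the 17 genes were at least 2-fold higher in Col-0 mock and 0 at least 2-fold lower, against 8.22% and 5.98% of all 16190 genes compared.

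Arabidopsis has a pair of further asparagine synthetase genes beside ASN1. ASN2 fell 1.41-fold with brassinolide, to 48.7 FPKM against 68.7 FPKM with mock, and rose 2.63-fold in BEH2-YFP (194 FPKM, against 73.7 FPKM in Col-0) and 1.45-fold in BZR1-YFP. ASN3 stood at 18.8 FPKM with brassinolide and 21.5 FPKM with mock and was called in no comparison. Of 12 genes of asparagine and glutamine metabolism, 0 rose and 1 fell with brassinolide, 3 rose and 2 fell in BEH2-YFP, and 1 rose and 1 fell in BZR1-YFP. Between the controls this list did not go with the DIN genes. Of the 12 genes 1 was at least 2-fold higher in Col-0 mock than in untreated Col-0 and 2 were at least 2-fold lower, with a median ratio of 0.928-fold. In BEH2-YFP the glutamine synthetase genes GLN1;1 (2.39-fold) and GLN1;2 (1.86-fold, named after its value was seen) rose beside ASN2, while GLN1;4 fell 4.58-fold and ASPGB1, an asparaginase that breaks asparagine down, fell 3.83-fold. GLN1;4 also fell 2.02-fold in BZR1-YFP. The rise of ASN2 in BZR1-YFP and that of PRODH1 were not called when the deposited p-values were adjusted within that table alone, which left 2 of the 4 pathway genes called in this line.

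In the raffinose and galactinol list, RFS2, a relative of DIN10, rose 1.52-fold with brassinolide and rose to 88.9 FPKM in BEH2-YFP, against 42.3 FPKM in Col-0. Between the controls, RFS2 was 3.95-fold higher in Col-0 mock than in untreated Col-0, while GOLS1 was 6.28-fold and GOLS2 8.85-fold lower in Col-0 mock, and the median ratio of the 5 genes of the list with at least 5 FPKM in either control was 0.545-fold. RFS5, the raffinose synthase of stressed leaves, fell 1.53-fold in BEH2-YFP, and the galactinol synthase gene GOLS2 rose 2.36-fold in BZR1-YFP. RFS1 stood between 6.80 and 8.81 FPKM in the 5 groups and was not called.

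Of the remaining relatives of the 7 genes, STR18, a sulfurtransferase related to SEN1, fell 1.51-fold with brassinolide and 1.56-fold in BEH2-YFP, the opposite direction to SEN1. STR16 stood between 199 and 264 FPKM and was not called, and STR17 was at or under 0.773 FPKM. BGLU28, related to BGLU30, rose 2.28-fold in BEH2-YFP (3.53 FPKM, against 1.55 FPKM in Col-0), and BGLU29 was at or under 0.0366 FPKM. PMI1, the other phosphomannose isomerase gene, stood between 32.4 and 38.1 FPKM, above DIN9 in every group, and BCDH BETA1, the other E1 beta gene, between 11.5 and 25.4 FPKM; neither was called.

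The lists also covered class II trehalose-phosphate synthases, SnRK1 subunits, bZIP factors of groups C and S1 and the autophagy protein ATG8. Of 7 class II trehalose-phosphate synthase genes, 1 rose with brassinolide (TPS11, 1.83-fold) and 3 rose in BEH2-YFP (TPS10 2.13-fold, TPS11 2.03-fold and TPS9 1.56-fold), and 0 were called by Cuffdiff in BZR1-YFP, with 1 at an unadjusted p under 0.05. Of 7 SnRK1 subunit genes, AKINBETA1 with brassinolide was the 1 call, and the catalytic subunit genes KIN10 (28.7 to 37.6 FPKM) and KIN11 (19.7 to 34.0 FPKM) were not called. Of the 9 bZIP genes of groups C and S1 and of the 9 genes of the autophagy protein ATG8, 0 were called by Cuffdiff in the 3 comparisons, in the authors' deposited tables. At an unadjusted p under 0.05 there was 1 bZIP gene with brassinolide and 0 in either line, and 1 ATG8 gene with brassinolide, 1 in BEH2-YFP and 0 in BZR1-YFP.

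**Figure D5:**
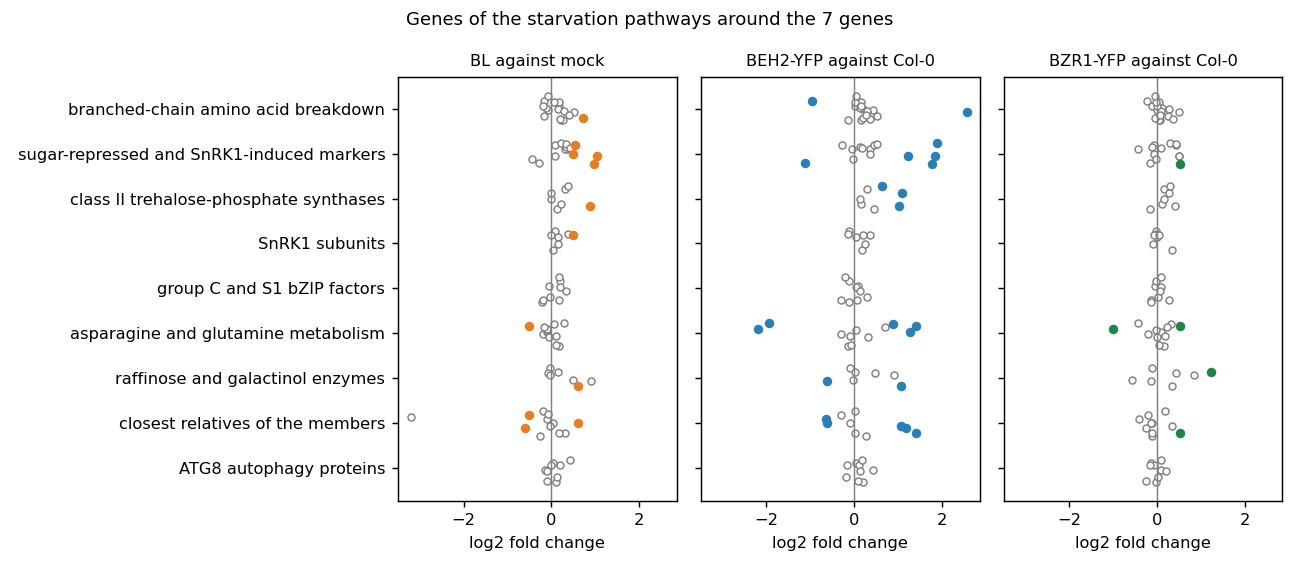
Log2 fold change (horizontal axis) of each tested gene in the 9 pathway lists (rows) in 3 panels, for brassinolide, the BEH2-YFP line and the BZR1-YFP line, each against its own control; coloured points have a q-value under 0.05 and open points do not, and points are spread vertically only for legibility. The marker list has 4 coloured points to the right of 0 in the first panel and 4 in the second, while the bZIP and ATG8 rows have 0 in any panel.

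Likeness of pattern was measured as the Euclidean distance between the log2 fold changes in the 3 comparisons, over 16624 genes tested in all 3 tables with at least 5 FPKM in some group. Nearest to ASN1 (1.59 with brassinolide, 2.20 in BEH2-YFP and 0.36 in BZR1-YFP) was the cell wall enzyme gene XTH4 (1.41, 2.08 and 0.29; distance 0.234), followed by MYB50 (distance 0.270). Nearest to BGLU30 was AT1G31258 (0.36, 2.40 and 0.98; distance 0.113), and nearest to SEN1 were AT1G05870 (distance 0.055) and C/VIF2, an inhibitor of fructosidase (distance 0.062). DIN10 had sks9 (distance 0.110) and GLR2.7 (0.121) as its nearest genes, DIN4 had RK2 (0.049) and BIN2 (0.059), and DIN9 had CA1 (0.070) and AT1G74055 (0.075). DIN11 stood apart, with its nearest gene AT3G50800 at a distance of 1.168 (-2.39, -3.00 and -0.60) and the next, AT1G70880, at 1.343. Its large changes rest on low levels, 0.584 FPKM in BEH2-YFP and 1.35 FPKM with brassinolide. Distances were not computed with a pseudocount, under which these changes were smaller. No member was among the 2 nearest genes of another.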

How the data were processed

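Libraries came from a stranded mRNA kit, per the labels' protocols. Reads were processed with TopHat2 2.0.13 and Cuffdiff 2.2.0 on TAIR10, per the submitters' processing notes. Trimming, annotation version and strand use were not given in the sources used here. Deposited by the authors were 3 tables of 38303 genes with 1 FPKM value per group, pooled over 2 libraries. They also hold the authors' log2 fold change without a pseudocount, a test statistic (a score), and the deposited p-value and q-value. Depth is unknown, and the sample titles call the libraries biological replicates without saying what was grown separately, so p-values speak for these libraries only. The p-values and derived standard errors rest on how Cuffdiff modelled the spread. They need not show each gene's own spread between its 2 libraries, which cannot be checked without values per library. With brassinolide the standard error was 0.15 for IVD, MCCA and TPS7 alike. Hormone and overexpression experiments were separate runs; levels across them have no test.

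The members and lists were chosen with earlier results of these data known, and the clock genes were added after their values were seen. A call is a deposited q-value under 0.05. The standard error is the log2 fold change divided by the deposited statistic, rescaled by the median factor that matches each table's p-values to a normal distribution, for p between 0.0002 and 0.9. Named by rule were all 7 members and up to 4 called genes per list by smallest q-value and then largest change. The rule also named all closest relatives and the 2 nearest genes by pattern. Other genes, among them those given for their control ratios and the single markers, were named with their values known. Only some of these are marked so. Gene positions and promoters come from RefSeq's TAIR10.1 assembly, which the tables' annotation columns also name. Python 3.11.15, pandas 2.3.3, NumPy 2.4.6 and SciPy 1.17.1 were used. The derived standard error and the adjustment of p-values were tested on simulated data with normal errors, and the other calculations were not tested in this way. Alternatives were the q-value threshold, a fold minimum, adjustment within each table, a filter of 1 FPKM, a pseudocount of 1 FPKM, median centring and the other experiment's control.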

Additional observations from a re-analysis of the deposited data

How the results depend on the processing

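Calls were repeated under 4 other rules. Where 2-fold changes with a q-value under 0.1 were required, 1 of the 7 genes was called in BZR1-YFP in place of 2 (DIN11 was lost), and 1 pathway gene was called with brassinolide in place of 9. In BZR1-YFP 2 of the 4 pathway genes (GLN1;4 and GOLS2) were called under each of the 4 rules, and ASN2 and PRODH1 were lost. SEN1 lost its calls with brassinolide and in BEH2-YFP at a q-value under 0.01 and under the 2-fold rule. With log2 of FPKM plus 1, the DIN11 difference between the lines was -1.95, against -3.13 without a pseudocount. Median centring gave a control difference of 1.41 for the 7 genes, against 1.63. Against the control of the other experiment, the log2 fold change turned negative for 3 of the called rises, DIN10 (-2.06) and SEN1 (-3.17) in BEH2-YFP and BGLU30 in BZR1-YFP (-1.03). It also turned negative for uncalled values, those of DIN4 in BEH2-YFP (-1.19) and of ASN1 (-0.18), DIN4 (-1.53), DIN10 (-2.92), DIN9 (-0.95) and SEN1 (-3.51) in BZR1-YFP. Of the 21 log2 fold changes of the 7 genes, 21 stayed within 1 standard error under centring, 18 with the pseudocount and 1 against the other control. No paired analysis was possible because the files give 1 pooled value per group, and leaving out a library was not run for the same reason. Depth is unknown, which limits what can be said of the genes at low levels, DIN11, DIN9 and also BGLU30. In untreated Col-0, the reference of both lines, BGLU30 (4.72 FPKM) stood below DIN11 (9.98 FPKM).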
